A study of Homo sapiens with 96 samples.

Results

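The results below compare 24 single-cell RNA libraries with the highest and 24 with the lowest levels of a pluripotency score, out of 72 libraries kept and 96 in the series. Each library came from its own well on 1 plate (8 rows, 12 columns), labelled as 1 cell of HUES64, an established human embryonic stem cell line, of genotype inducible DNMT1 KO, at day 0. A library was kept when it had at least 100000 reads in genes, at least 2000 genes with a read, at least 1% of its gene reads on mitochondrially encoded genes and at least 50 CPM of GAPDH. CPM scales the reads of a gene by the total of gene reads in its library. Of the 96 libraries, 90 met the first and the second of these conditions, 84 also the third, and 72 all 4. The score was the mean of log2(CPM + 1) over POU5F1, TDGF1, DPPA4, L1TD1, LIN28A and TERF1. The 72 kept libraries were ordered by it and cut into 24 high-score, 24 middle and 24 low-score libraries. All wells carried the same labels, 1 of which gives doxycycline induction as absent and another as dox+, so the induction state of the cells is not settled by them. DNMT1, the target of the knockout, had a read in 24 high-score, 23 middle and 21 low-score libraries. The labels do not give the number of clones or the culture each cell came from, so the cells count as 1 sample, and no test, standard error or p-value is given below. SDs describe the spread between libraries.

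Human embryonic stem cells renew themselves while a small circuit of transcription factors, with POU5F1 (OCT4), SOX2 and NANOG at its core, keeps the genes of the germ layers low. The circuit works beside the NODAL and FGF pathways and a set of RNA-binding proteins that hold back differentiation. POU5F1 is the core factor, TDGF1 (CRIPTO) is the co-receptor of NODAL, and DPPA4 is a chromatin protein typical of pluripotent cells. L1TD1 and LIN28A bind RNA, LIN28A blocking the maturation of the let-7 microRNAs, and TERF1 coats telomere repeats. When pluripotent cells leave this state, these genes are known to go down and genes of neural, mesodermal or endodermal cells to go up.

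The libraries of each group were chosen by the measured levels of the 6 score genes, so these levels are a description only. The score was 9.002 to 9.723 in the high-score libraries (median 9.19), 8.547 to 8.999 in the middle ones (median 8.81) and 1.79 to 8.52 in the low-score ones (median 7.45). The groups met without a gap. The lowest high-score library, in well B11, had a score of 9.002 and the highest middle one, in well E5, had 8.999. At the other edge the lowest middle library, in well H3, had 8.547 and the highest low-score library, in well F6, had 8.517. The SD of the score was 0.20 among the high-score libraries and 2.003 among the low-score ones, so the contrast rests mainly on a long lower tail.

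POU5F1, on chromosome 6 at 31164337-31180731 (GRCh38, GENCODE 29), had 175 to 1186 CPM in the high-score libraries with a median of 617, and 0 to 888 CPM in the low-score ones with a median of 246. TDGF1, on chromosome 3 at 46574534-46582463, had 325 to 1788 CPM (median 760) in the high-score libraries and 1.97 to 1195 CPM (median 391) in the low-score ones. DPPA4, on chromosome 3 at 109326141-109337572, had 444 to 1238 CPM (median 720) and, in the low-score libraries, 0 to 870 CPM (median 337). In all 3 genes the ranges overlapped, and the low-score range reached down to 0 or nearly so. L1TD1, on chromosome 1 at 62194831-62212328, had 202 to 1261 CPM (median 735) in the high-score libraries and 0 to 1727 CPM (median 377) in the low-score ones, among which stood the highest single value of the 72. LIN28A, on chromosome 1 at 26410778-26429722, had 386 to 1354 CPM (median 748) in the high-score libraries and 0 to 850 CPM (median 195) in the low-score ones. TERF1, on chromosome 8 at 73008864-73048122, had 118 to 810 CPM (median 336) in the high-score libraries and 0 to 433 CPM (median 52.6) in the low-score ones. LIN28A and TERF1 differed the most, by 3.15 and 3.45 in mean log2(CPM + 1), and L1TD1 the least, by 1.60.

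**Figure D1:**
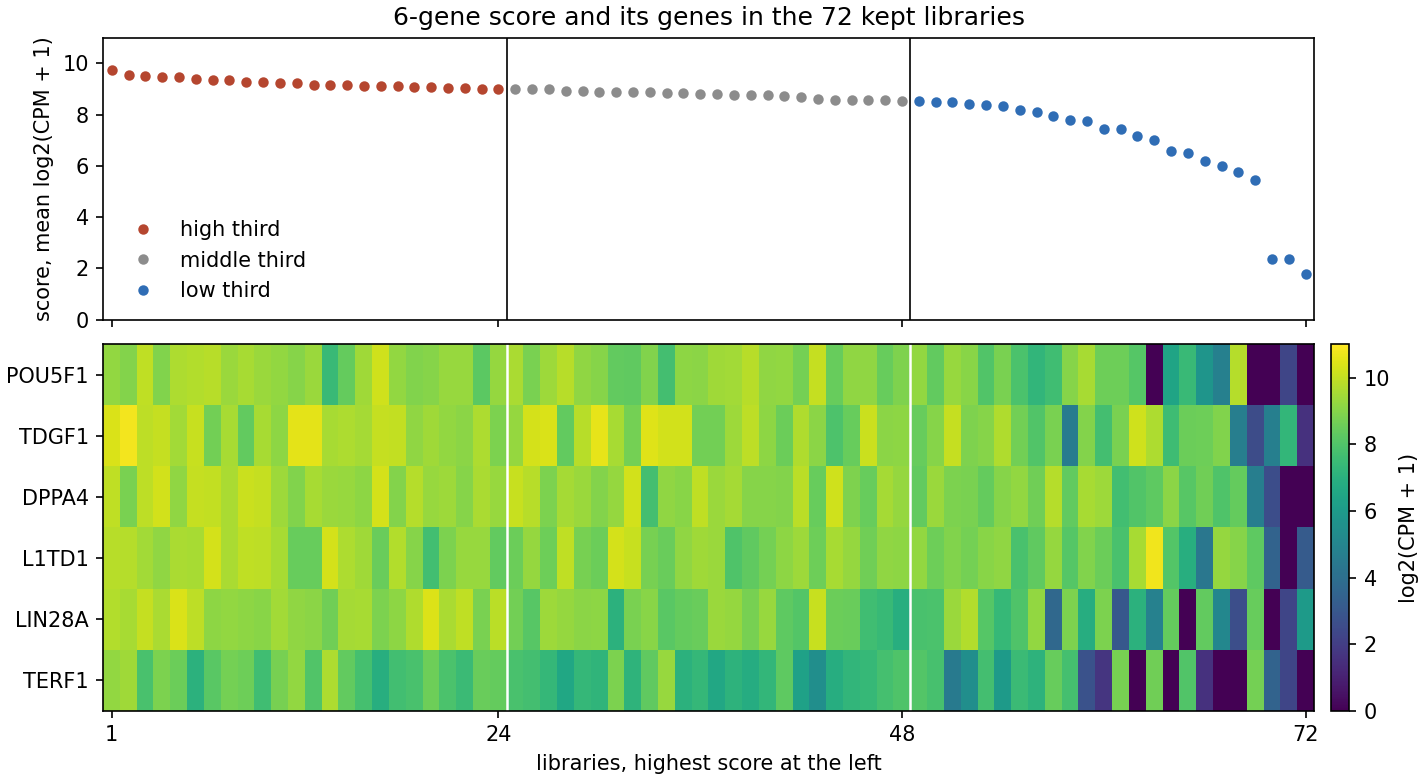
Upper panel: the score (mean log2(CPM + 1) of 6 genes) of each of the 72 kept libraries, ordered from the highest at the left. Lower panel: log2(CPM + 1) of each score gene in the same libraries, with lines between the 24 high-score, 24 middle and 24 low-score libraries. The score is nearly flat over the first 2 groups and falls off within the low-score one, where single dark cells mark genes near 0.

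In most low-score libraries the 6 genes did not go down together. No high-score and no middle library had a score gene under 10 CPM, against 14 of the 24 low-score libraries. Of these 14, 9 lacked 1 gene, 2 lacked 2, 1 lacked 3 and 2 lacked 5, in the sense of a level under 10 CPM. The 2 that lacked 5 were in wells D4 and F10. In well E10, which lacked 3, TDGF1 stood at 25.5 CPM and L1TD1 and TERF1 at 10.2 CPM, so all 6 genes were low there. TERF1 was the gene most often under 10 CPM, in 9 low-score libraries, followed by POU5F1 and LIN28A in 5 each, DPPA4 in 3, and TDGF1 and L1TD1 in 2 each. In well D11, for example, POU5F1 stood at 888 CPM, the highest value among the low-score libraries, while TERF1 was at 0 and LIN28A at 5.33 CPM. The rank correlation between pairs of score genes over the 72 libraries ran from -0.02 to 0.56 with a median of 0.23 (15 pairs, all sharing the same libraries and totals). When each gene was compared across groups made from the other 5, the difference in mean log2(CPM + 1) was 2.39 for POU5F1, 1.75 for TDGF1, 1.76 for DPPA4, 1.42 for L1TD1, 2.51 for LIN28A and 2.54 for TERF1. The sign stayed positive in each of the 6 genes, but this was largely fixed beforehand. These groups shared 19 to 22 high-score and 21 to 23 low-score libraries with the main ones. In them the median difference over the 9007 other genes described below was 0.69 to 0.99.

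Among the low-score libraries, the 14 with a score gene under 10 CPM had a median of 423256 gene reads, against 561820 in the other 10. Over the low-score libraries 3 reads stood for 2.18 to 15.3 CPM, so a level under 10 CPM can be a handful of reads. The 3 lowest scores belonged to wells D4 (1.79), F10 (2.36) and E10 (2.38). The library in E10 had 196136 gene reads, the fewest of the 72, and the highest mitochondrial share, 41.8%. Well F10 had 257404 gene reads and a mitochondrial share of 21.96%. Well D4 was different, with 506450 gene reads, a mitochondrial share of 11.7% and 871 CPM of GAPDH.

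In well D4 POU5F1, DPPA4, TERF1, NANOG and SOX2 had no read, which allows up to 3 reads or 5.92 CPM. The genes named next were chosen after their values were seen. FN1, which encodes the matrix protein fibronectin, stood at 16347 CPM in D4 and at no more than 425 CPM in the other 71 libraries. APOA2, an apolipoprotein, stood at 1593 CPM (highest elsewhere 23.46), and TTR, the thyroid hormone carrier transthyretin, at 877 CPM (highest elsewhere 3.64). In all, 62 genes had at least 100 CPM in D4 and more than 3 times their highest level elsewhere, among them LGR5, HEY1 and CXCR4. Of the 14 genes of an endoderm marker list, 5 had at least 50 CPM in D4 and 9 had under 10 CPM, and no other kept library had more than 2 at 50 CPM. EPCAM, an epithelial adhesion molecule, was at 1297 CPM.

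The groups also differed in how much RNA sequence each library held. Gene reads had a median of 1139200 in the high-score, 768161 in the middle and 493464 in the low-score libraries, and a high-score library had more gene reads than a low-score one in 85.6% of pairs. All reads, including those outside genes, differed less, with medians of 7292620, 6653170 and 6101870. Reads assigned to genes made up a median of 16.1%, 13.4% and 8.69% of all reads in the same order. Over the 72 libraries the score had a rank correlation of 0.59 with gene reads and 0.05 with all reads. At a common depth of 100000 gene reads the libraries held a median of 7715, 8054 and 7164 genes with a read, with a wider range among the low-score libraries (4058 to 12376) than among the high-score ones (6591 to 8841). The relation of this count to the score turned within the plate: a high-score library had more such genes than a low-score one in 17.5% of pairs in plate rows F and G, and in 79.9% in the other rows. GAPDH, which the selection of libraries used at 50 CPM, had a median of 1584, 1567 and 592 CPM. The mitochondrial share had a median of 9.40%, 9.06% and 10.6%.

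Another measure that moved with the score was the share of reads on 5 loci that are high in libraries with few mitochondrial reads: FLG-AS1, PDE4A, RP11-217O12.1, DGCR14 and KCNJ2. They took 0.345% to 3.04% of the gene reads in the high-score libraries (median 1.54%), 0.669% to 5.22% in the middle ones (median 1.93%) and 0.9999% to 11.9% in the low-score ones (median 2.97%). The rank correlation with the score was -0.57 over the 72 libraries, -0.57 in plate rows A to E and H (53 libraries) and -0.74 in rows F and G (19 libraries). High-score libraries made up 5, middle ones 6 and low-score ones 8 of the 19 kept libraries in rows F and G. Rows F and G stood apart from the rest of the plate. Their libraries had 22.2% to 36.9% of all reads mapped outside genes, against 12.7% to 19.4% in the other rows. The part of gene reads and of these loci in the gene differences below was examined only by the alternatives given with them.

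**Figure D2:**
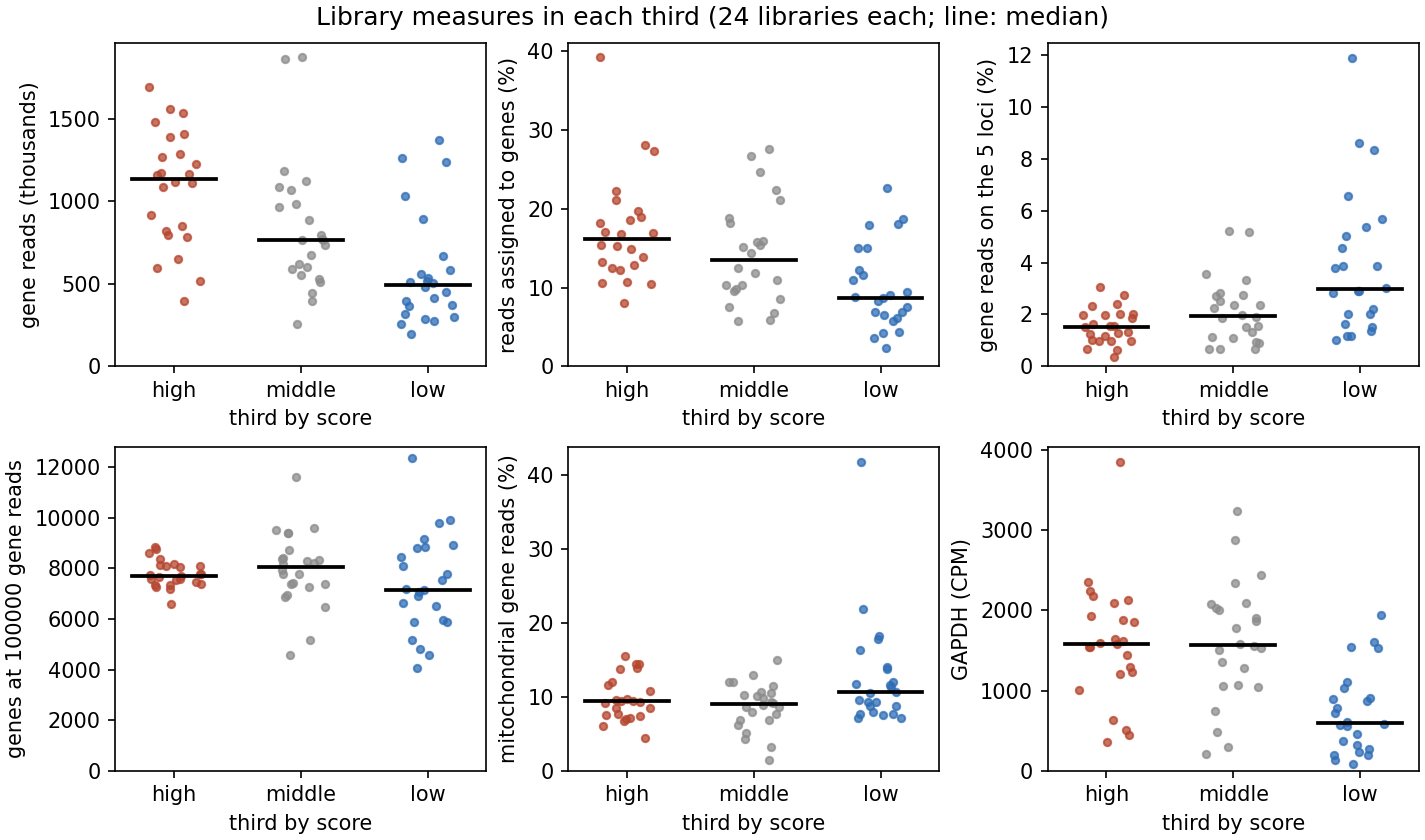
Gene reads, share of reads assigned to genes, share of gene reads on the 5 loci, genes with a read at 100000 gene reads, mitochondrial share and GAPDH level in each of the 24 high-score, 24 middle and 24 low-score libraries. Points are libraries and lines are medians. Gene reads are highest in the high-score libraries (medians 1139200, 768161 and 493464) and the share of the 5 loci is highest in the low-score ones (1.54%, 1.93% and 2.97%), with overlapping ranges.

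Outside the score, 9007 genes were counted, those that averaged 10 CPM or more and were detected in 25% or more of the kept libraries. A gene was counted as higher or lower when the mean log2(CPM + 1) of the 2 groups differed by at least 1 and the cell of the group with the higher mean was the higher one in at least 75% of the pairs of 1 high-score and 1 low-score cell. By this size rule 654 genes (7.26%) were higher and 236 (2.62%) lower in the high-score libraries. These genes were measured in the cells that the score sorted, so the counts are descriptions of this sorting. The median difference over the 9007 genes was 0.87, and 76.9% of genes had a positive one, so a list's values are set beside this median. Of the 654, 639 had a positive difference in both sets of plate rows, and of the 236 all had a negative one in both. The genes were chosen in these same libraries, so the shared signs were largely fixed beforehand. Groups remade within rows A to E and H (17 libraries each) gave 1031 higher and 258 lower genes, and within rows F and G (6 each) 1731 and 1296. The middle libraries had a mean between the others in 568 of the 654 and 233 of the 236. By level, the median difference was 0.43 among genes with a mean from 10 to 30 CPM, 1.18 from 30 to 100 CPM, 1.41 from 100 to 300 CPM and 0.94 above that. With the scaling factors of TMM in place of gene reads, 1941 genes were higher and 312 lower, and with those of DESeq2 1963 and 181. The median difference was 1.32 with either of these. The 654 genes had a read in a median of 23 high-score and 15 low-score libraries. Among the libraries with a read, 641 of the 654 still had the higher mean in the high-score group, by a median of 1.42.

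When the kept libraries were cut into 3 strata of 24 by gene reads, and the highest and lowest scores were taken within each, 94 genes were higher and 5 lower. Of these, 67 and 2 were among the 654 and the 236. All 654 genes had a positive difference in that comparison, with a median of 1.58 against 0.53 over all genes, and 222 of the 236 had a negative one, with a median of -0.42. The groups so made share 17 high-score and 16 low-score libraries with the main ones, and the 654 and the 236 were chosen in these libraries, so the shared signs were largely fixed beforehand. The strata did not level depth fully. Median gene reads were 476817 at high and 336244 at low scores in the shallowest stratum, 810580 and 634948 in the middle one, and 1248440 and 1251730 in the deepest. The 5 loci took a median of 2.73% and 5.51%, 1.96% and 3.11%, and 1.41% and 1.46% of gene reads in the same order. With the part of the score that a linear fit on gene reads, genes at a common depth and the ratio of MT-CO2 to MT-CO1 accounts for taken away (35.05% of its variance), 1 gene was higher and 5 were lower, none of them among the 654 or the 236. The groups made from that remainder shared 10 high-score and 14 low-score libraries with the main ones. Depth was reversed in them, with median gene reads of 557591 at high and 1059030 at low residual scores. The fit thus did not level depth. For most single genes, the score and the number of gene reads cannot be told apart in these libraries.

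Among 14 counted pluripotency transcription factors, 5 were higher (35.7%) and none lower, and 13 of the 14 differences were positive with a median of 1.74. Over all counted genes 7.26% were higher and 76.9% had a positive difference, with a median of 0.87. The share of higher genes was not particular to this list: housekeeping genes other than GAPDH, given below, reached 36.8%. NANOG, a core factor of the circuit, had 1.54 to 165 CPM in the high-score libraries (median 63.2) and 0 to 166 CPM in the low-score ones (median 16.6). Its difference was 2.55, and it had a read in 24 high-score and 14 low-score libraries. The middle libraries had a NANOG median of 75.6 CPM, above the high-score one. SALL4, a zinc finger factor that works with POU5F1, had medians of 81.6 and 18.996 CPM and a difference of 2.38. Its middle median, 36.9 CPM, lay between them. MYCN, a MYC family factor, differed by 2.28, HMGA1, an architectural chromatin protein, by 2.13 and JARID2, which guides Polycomb complex 2 and is also the 1 of 10 genes of that list past the rule, by 1.57. SOX2, the partner of POU5F1, had medians of 31.3 and 5.58 CPM and missed the size rule with a higher level in 73.4% of pairs. In the strata of gene reads it was the one list member past the rule, with a difference of 2.35, and NANOG differed by 2.32 there without passing it. Genes of other lists, among them those of general cell upkeep, passed there too, as given below.

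Of 22 other stem cell genes, 3 were higher and all 22 differences were positive (median 1.65). POLR3G, a subunit of RNA polymerase III that marks pluripotent cells, had 20.5 to 812 CPM in the high-score libraries (median 307) and 0 to 561 CPM in the low-score ones (median 102). It differed by 2.53 and passed the size rule within the strata of gene reads as well, with 1.95. ESRG, a long noncoding RNA abundant in human embryonic stem cells, had medians of 597 and 254 CPM, and VRTN, vertnin, of 20.995 and 1.82 CPM. In the middle libraries the ESRG median, 596 CPM, was close to the high-score one. Those of POLR3G (224 CPM) and VRTN (5.96 CPM) lay between the groups. TDGF1P3, a processed copy of TDGF1, was also higher, by 1.90. Reads of the copy and of its parent can be placed on the wrong one, so it is no separate observation. Among the RNA-binding proteins of stem cells, IGF2BP3, which stabilises mRNAs, was higher by 2.55. CDH1, the E-cadherin that holds stem cell colonies together, was the one of 20 surface and adhesion genes that was higher, with medians of 74.1 and 2.37 CPM. THY1, a surface antigen of primed stem cells, was the one of 13 genes of the primed state, by 2.21. Its difference turned between the sets of plate rows, with -0.29 in rows F and G, against 3.12 in the others.

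Of 4 counted genes of the naive state, none was higher and ESRRB, an orphan nuclear receptor, was lower by 1.23, with 46.1 to 722 CPM in the high-score libraries (median 122) and 45.6 to 1554 CPM in the low-score ones (median 303). ESRRB also stood at 1564 CPM in the pooled reads of 9 libraries with under 1% mitochondrial reads, which were not kept. No gene of 14 in the NODAL and activin pathway was past the size rule, and its median difference was 0.71, below that of all genes. GDF3, a ligand of this pathway, had a median of 303 CPM in the high-score and 878 CPM in the low-score libraries, while the mean of log2(CPM + 1) was 0.30 higher in the high-score ones. In the FGF pathway 3 of 20 genes were higher, the kinase MAP2K1 by 2.79, the inhibitor SPRED1 by 2.75 and the adaptor GRB2 by 2.36. In the WNT pathway 3 of 16 were higher, the receptors FZD3 by 2.82 and LGR4 by 2.62 and the kinase GSK3B by 2.43. These calls stand beside 7.26% of all genes. The median difference was 0.93 in the FGF list and 0.67 in the WNT list, against 0.87 over all genes.

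DNMT1, which restores DNA methylation after replication and is the target of the inducible knockout, had 0.709 to 137 CPM in the high-score libraries (median 16.7) and 0 to 213 CPM in the low-score ones (median 4.97). It differed by 0.80, less than the median gene, and was not past the size rule. Of the 17 genes of DNA methylation and demethylation, TRIM28, a corepressor that holds methylation at imprinted loci and repeats, was the one past it, with a difference of 2.33, which was -0.081 in rows F and G, against 3.13 in the others. DNMT3B, the de novo methyltransferase of pluripotent cells, had medians of 259 and 86.1 CPM and a difference of 2.04, with a higher level in 74.8% of pairs, just short of the rule. None of 11 telomere genes other than TERF1 passed, and their median difference, 0.87, was that of all genes.

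Cell cycle genes showed 1 of the highest list medians with few calls. The 27 genes of G1/S all had positive differences, with a median of 1.86. Only MCM2, a subunit of the replicative helicase, was past the size rule, with medians of 13.1 and 0.767 CPM. It also passed within the strata of gene reads, with 2.22. Of 32 genes of G2/M, 4 were higher and 1 was lower. The 4 were TTK (2.99) and AURKB (2.82), kinases of the spindle checkpoint and of chromosome segregation, BIRC5 (2.62), survivin, and CCNB1 (2.43), the main mitotic cyclin. CCNB2, a second mitotic cyclin, went the other way, with 119 to 1970 CPM in the high-score libraries (median 319) and 203 to 4868 CPM in the low-score ones (median 710). In the pool of libraries with few mitochondrial reads CCNB2 stood at 3152 CPM and CCNB1 at 19.8 CPM.

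**Figure D3:**
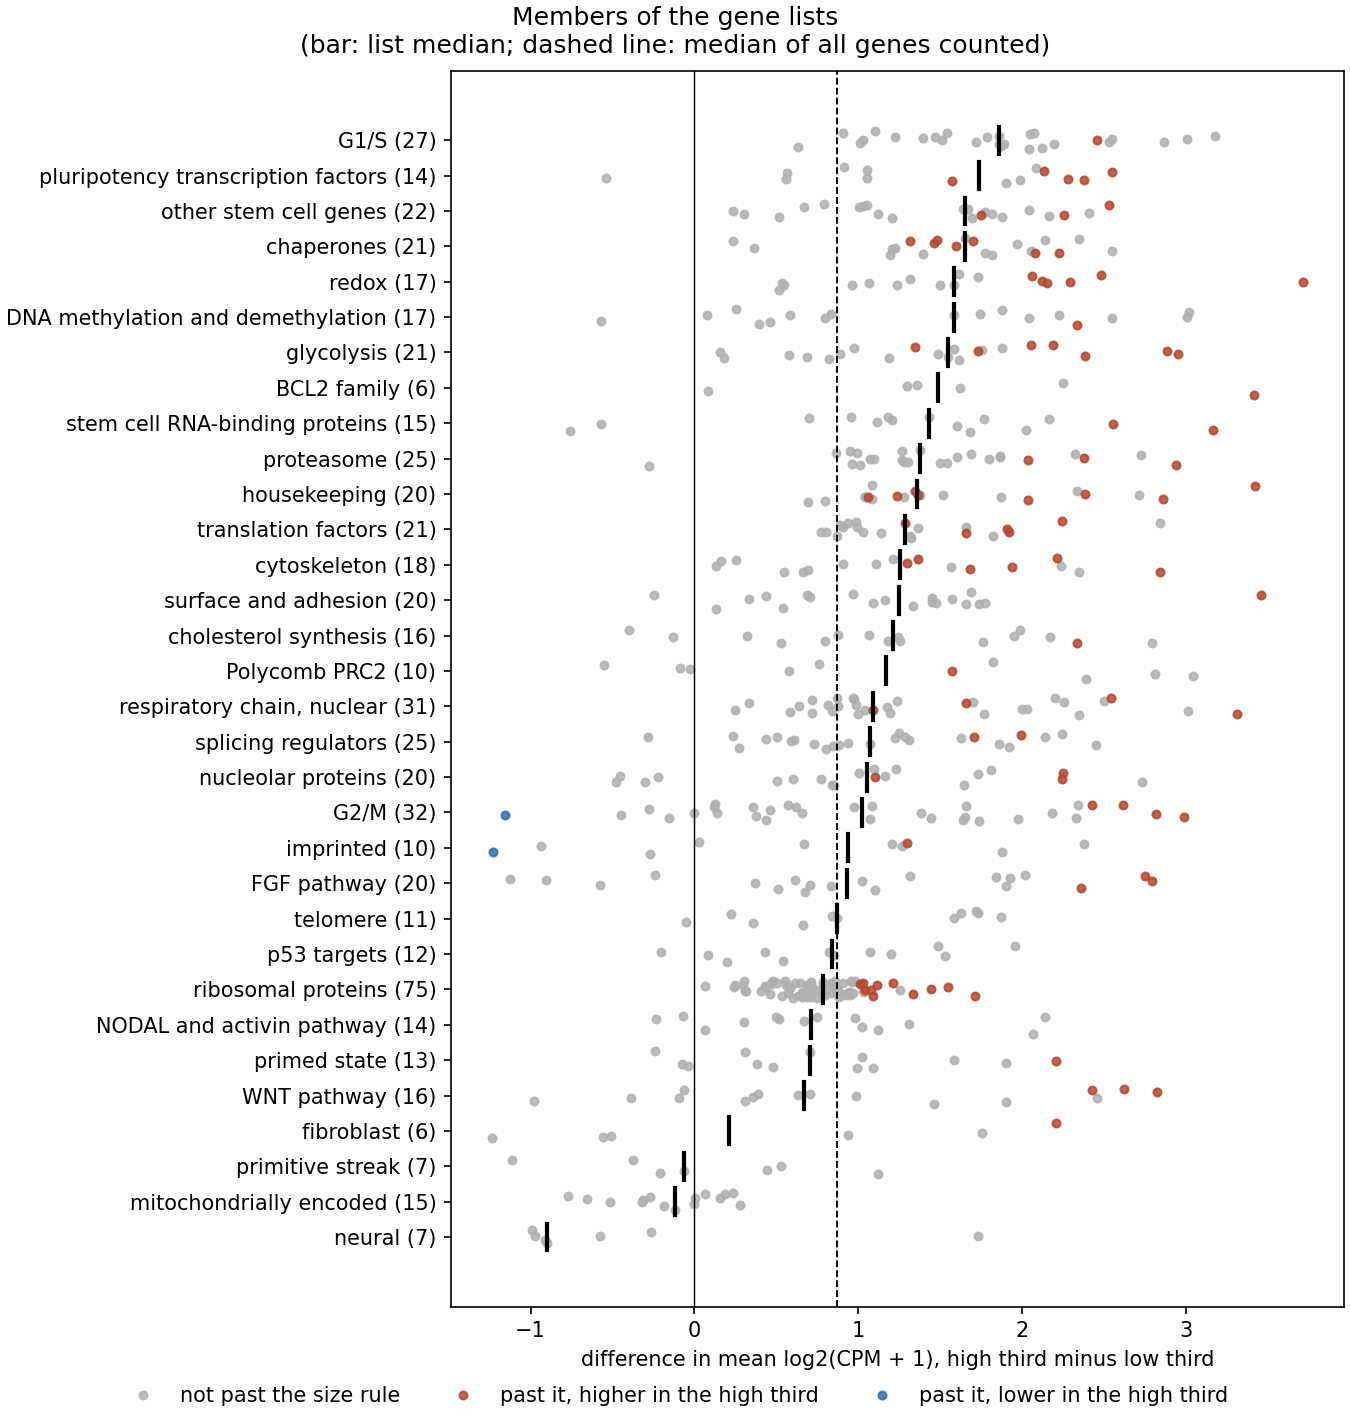
Difference in mean log2(CPM + 1), high-score minus low-score libraries, of every counted member of each gene list with at least 6 such members (number in brackets). Red points are members past the size rule that were higher, blue points those that were lower, and bars are list medians. The dashed line is the median of all 9007 genes, 0.87. The medians of the pluripotency transcription factors (1.74) and other stem cell genes (1.65) lie to its right, as do those of chaperones (1.65), redox genes (1.58) and glycolysis (1.54), and the neural (-0.90) and mitochondrially encoded (-0.12) lists lie below 0.

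Genes of general cell upkeep were also among those past the size rule. Of 20 housekeeping genes 8 were higher (40%), of 17 redox genes 6 (35.3%), and of 21 glycolysis genes, 21 chaperones and 18 cytoskeleton genes 7, 7 and 6 (33.3% each). GAPDH, which the selection of libraries used, is among the housekeeping and the glycolysis genes, and without it 7 of 19 (36.8%) and 6 of 20 (30%) were higher. Many of these genes are abundant, and among the 530 counted genes that averaged 300 CPM or more, 67 were higher (12.6%). TPI1, triosephosphate isomerase of glycolysis, had 283 to 3008 CPM in the high-score libraries (median 1448) and 3.88 to 1349 CPM in the low-score ones (median 497), and was higher in 89.9% of pairs. HSP90AB1, a cytosolic chaperone, had 900 to 3412 CPM (median 1739) in the high-score and 11.7 to 2059 CPM (median 665) in the low-score libraries. Both also had the middle libraries close to the high-score ones, with medians of 1322 CPM for TPI1 and 1499 CPM for HSP90AB1. PGK1 and ALDOA, enzymes of glycolysis, differed by 2.39 and 2.06, HSPA9, the mitochondrial HSP70, by 2.23, and PRDX1, a peroxiredoxin, by 2.15. TXN2, the mitochondrial thioredoxin, differed by 3.71, the largest value in these lists, with a read in 21 high-score and 9 low-score libraries. The tubulins TUBA1A, TUBA1B and TUBB differed by 2.21, 1.94 and 1.37. In the strata of gene reads TPI1 and HSPA9 also passed the size rule, with 1.21 and 1.27. The other genes named in this paragraph did not pass there, among them PGK1 with 2.10 and HSP90AB1 with 1.24. Because genes outside the pluripotency lists differed as well, the groups are called here by their score and not by their pluripotency.

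Of 31 nuclear genes of the respiratory chain 4 were higher, among them ATP5B, a subunit of ATP synthase, by 2.54 and COX5A, a subunit of cytochrome oxidase, by 1.66. None of the 15 mitochondrially encoded genes was past the rule, and their median difference was -0.12. Of 75 ribosomal protein genes 11 were higher (14.7%), and their median difference, 0.78, lay below that of all genes. With TMM factors 71 of these 75 were higher, beside 21.5% of all genes, so their call depends on the scaling. Translation factors gave 5 of 21, among them the elongation factors EIF5A by 2.24 and EEF2 by 1.28, and the nucleolar proteins 3 of 20, among them FBL, the methyltransferase fibrillarin, by 2.25 and NCL, nucleolin, by 1.101, a difference that was -0.0049 in rows F and G and 1.45 in the other rows. PMAIP1 (NOXA), which promotes cell death and is known to be high in human embryonic stem cells, was the one of 6 BCL2 family genes past the rule. It had 106 to 1894 CPM in the high-score libraries (median 465) and 0 to 1217 CPM in the low-score ones (median 133), and it also passed within the strata of gene reads, with 2.85. Of 12 p53 targets and 4 immediate early and stress genes none passed. The proteasome gave 3 of 25 genes, the splicing regulators 2 of 25 and cholesterol synthesis 1 of 16, FDPS, farnesyl diphosphate synthase, by 2.33. GAPDH, PPIA and the tubulins have many processed copies in the genome, and reads shared with a copy may be missing from their counts.

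Across all genes, the 12 largest positive differences with the same sign in both sets of plate rows belonged to CNIH1 (4.18), CLNS1A (4.12), TUBB6 (3.95), STK26 (3.93), NRBP1 (3.90), VTA1 (3.85), MICU2 (3.82), WDHD1 (3.77), NAA50 (3.76), EXOSC7 (3.76), TFB2M (3.75) and TMEM219 (3.75). They belong to no single group: CNIH1 sorts cargo leaving the endoplasmic reticulum, CLNS1A helps to assemble spliceosomal particles, VTA1 acts in endosomal sorting, and MICU2 and TFB2M act in mitochondria. All were detected in fewer low-score libraries, but detection was not the whole difference. Among libraries with a read, the median of each gene was also higher in the high-score group. It was 203.9 against 12.98 CPM for CNIH1 and 321 against 69.7 CPM for NAA50. For CLNS1A and VTA1 the gap was narrower, at 276 against 199.9 CPM and 241.5 against 193.7 CPM. CNIH1 had 0 to 473 CPM in the high-score libraries (median 203) and 0 to 840 CPM in the low-score ones (median 2.95), with the highest value of the 2 groups in a low-score library. CLNS1A likewise had 54.3 to 659 CPM (median 276) in the high-score and 0 to 1275 CPM (median 3.67) in the low-score libraries. The number of low-score libraries with a read ran from 9 for TFB2M to 20 for NAA50, against 20 to 24 high-score libraries. VTA1 and NAA50 also passed the size rule in the strata of gene reads, with 3.40 and 2.99.

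The 236 genes that were lower had another profile. They had a read in a median of 24 libraries of either group, and 31 of 319 genes of types other than protein-coding were among them (9.72%), against 153 of 8071 protein-coding ones (1.9%). Every one of the 236 stood higher in the pooled reads of the 9 libraries that had under 1% mitochondrial reads, which held 1009549 gene reads, than on average in the kept libraries, against 22.3% of all counted genes and 10 of the 654 higher ones (1.53%). Over the 72 libraries their level had a median rank correlation of 0.55 with the share of the 5 loci and of -0.73 with gene reads, positive with the share and negative with gene reads in all 236. The 654 higher genes went the other way, with medians of -0.36 and 0.36, and all 654 were positive with gene reads. Over all counted genes the medians were -0.18 and 0.14. Both sets were chosen in these libraries by a score that itself had rank correlations of 0.59 with gene reads and -0.57 with the loci. The shared signs were therefore largely fixed beforehand. Among the 236 are also 3 of the 5 loci, which enter the share they are set against. Of the 5 loci themselves, DGCR14, a splicing-associated nuclear protein, was lower by 1.11, RP11-217O12.1 by 1.03 and FLG-AS1, a transcript antisense to filaggrin, by 1.16. KCNJ2, a potassium channel gene, had medians of 7542 CPM in the high-score and 13724 CPM in the low-score libraries without passing the rule. The 12 largest negative differences were those of KCP (-1.99), TSPAN12 (-1.99), MIR30B (-1.97), RP11-540O11.8 (-1.97), LINC00384 (-1.93), TYR (-1.91), RP11-120D5.1 (-1.85), OSBPL5 (-1.82), KIAA1468 (-1.81), AC006548.28 (-1.80), RP1-28C20.1 (-1.79) and RP1-228P16.4 (-1.78).

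TYR, tyrosinase of pigment cells, had 9.93 to 1371 CPM in the high-score libraries (median 20.03), 15.3 to 2890 CPM in the low-score ones (median 82.9) and 1137 CPM in the pool. TSPAN12, a tetraspanin of the Norrin receptor complex, had 3.45 to 272 CPM (median 12.9) in the high-score and 1.94 to 855 CPM (median 65.2) in the low-score libraries, and 125 CPM in the pool. Its median in the middle libraries, 113 CPM, was above those of both groups, so its level did not fall steadily with the score. Of these 12 genes TSPAN12 alone was also past the size rule in the strata of gene reads, with -1.65. There TYR and MIR30B, which names a microRNA precursor, had differences of 0.06 and 0.01. MEG3, a maternally expressed noncoding RNA, was lower by 1.23, and SNRPN, a paternally expressed gene, higher by 1.297, out of 10 imprinted genes. Reads were counted without regard to strand, so a gene and a transcript running against it cannot be told apart, which touches the noncoding names here.

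**Figure D4:**
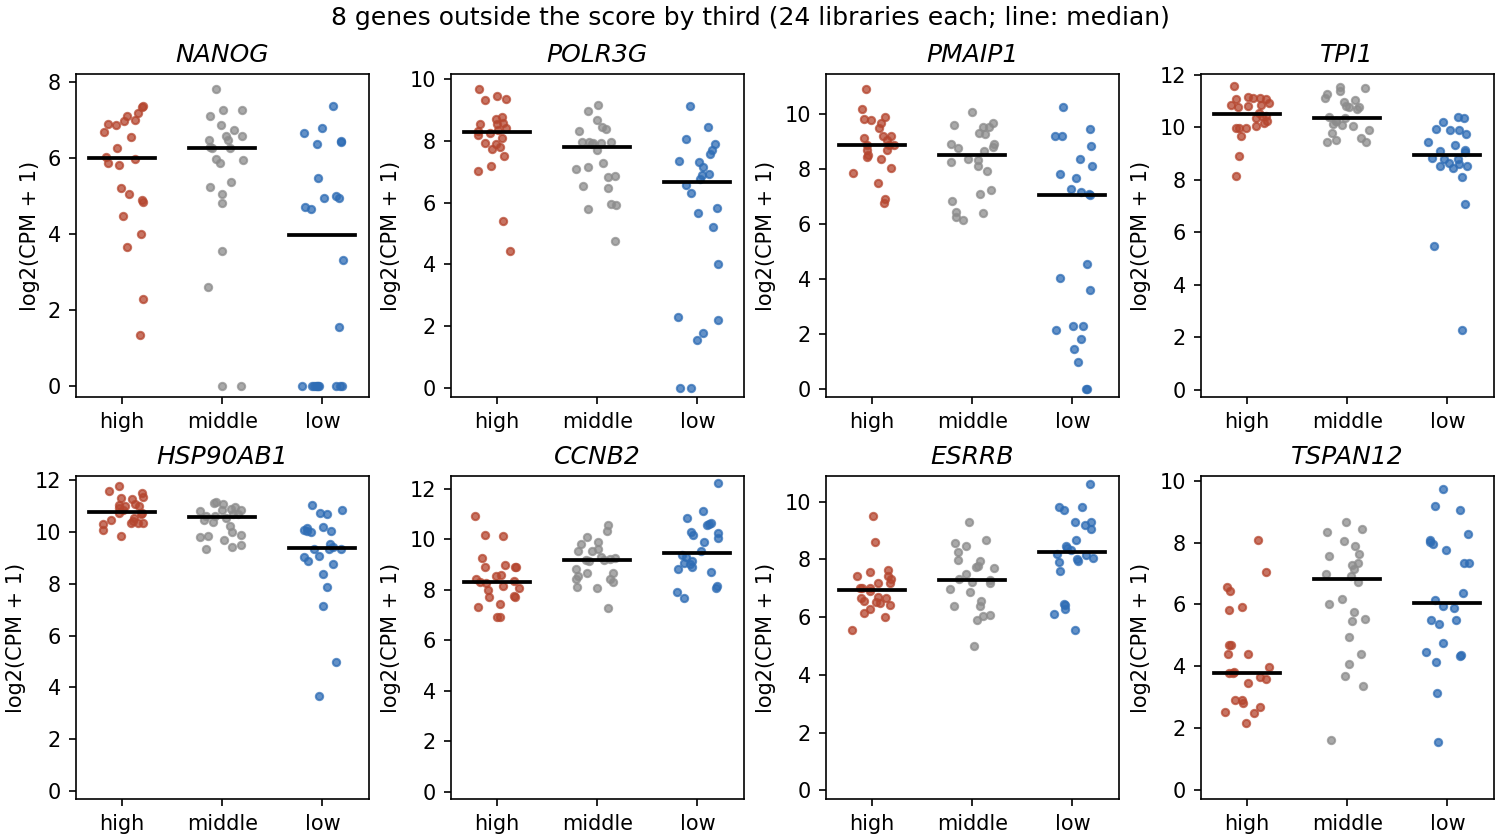
Level, log2(CPM + 1), of 8 genes outside the score in each of the 24 high-score, 24 middle and 24 low-score libraries. Points are libraries and lines are medians. NANOG, POLR3G, PMAIP1, TPI1 and HSP90AB1 are higher in the high-score libraries with a tail of low values in the low-score ones. CCNB2, ESRRB and TSPAN12 are lower, with overlapping ranges in all 8. The middle medians of NANOG (75.6 CPM) and TSPAN12 (113 CPM) lie above those of both other groups.

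Of 7 counted neural genes none was past the size rule, and 6 had a negative difference, which means higher in the low-score libraries (list median -0.90). PAX6, a neural and eye transcription factor, had a median of 70.2 CPM in the high-score and 176 CPM in the low-score libraries, and MAP2, a neuronal microtubule protein, of 63.01 and 155 CPM. Both stood higher in the pool of libraries with few mitochondrial reads, at 1044 and 927 CPM, and the list's median difference was -0.02 in the strata of gene reads. The summed level of all 16 neural genes was 150 to 677 CPM in the high-score libraries (median 279) and 62.03 to 2222 CPM in the low-score ones (median 594), with the highest in well F10. PAX6, the list member with the highest mean level in the kept libraries, had a read in every library of both groups. The part of the pooled libraries' RNA in these values was not tested.

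The primitive streak list (7 counted, median difference -0.06) had no call, and MIXL1, one of its transcription factors, had medians of 4.22 and 6.35 CPM. KDR, a receptor of early mesoderm, had medians of 84.9 and 17.7 CPM with a higher level in 58.1% of pairs. Of 3 counted mesoderm genes CDH5, the cadherin of endothelial cells, was lower by 1.02, and stood at 241 CPM in the pool. The summed level of the 14 endoderm genes was 5.86 to 119 CPM in the high-score libraries (median 18.8) and 8.72 to 1809 CPM in the low-score ones (median 28.3), with the highest in well D4, so the top of this range is 1 library. For trophoblast and amnion the sums were 9.48 to 145 CPM (median 26.8) and 7.25 to 294 CPM (median 52.7), again with the highest in D4. The fibroblast list reached 16402 CPM in D4 through FN1, against medians of 378 CPM in the high-score and 286 CPM in the low-score libraries. No germline gene was frequent enough to be counted, and the 18 of that list summed to 1.44 to 227 CPM in the high-score and 0 to 572 CPM in the low-score libraries. Without the 3 lowest-scoring wells D4, E10 and F10, 519 genes were higher and 138 lower.

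**Figure D5:**
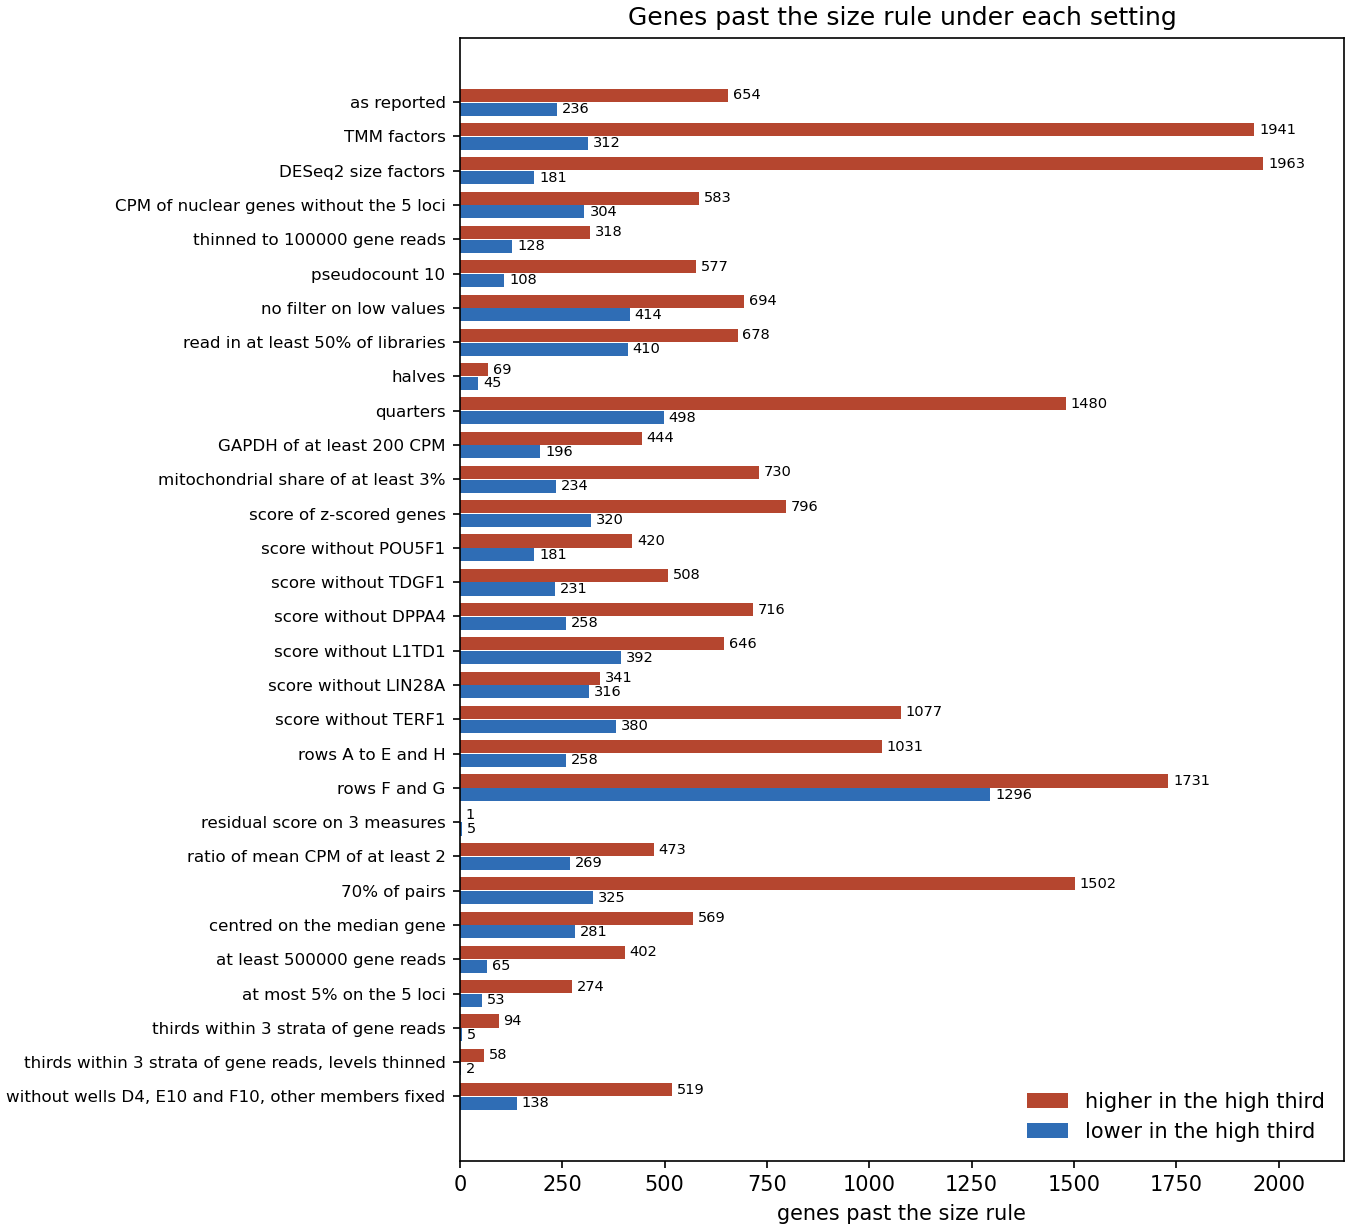
Number of genes past the size rule, higher (red) and lower (blue) in the high-score libraries, as reported and under each other setting. The counts run from 1 to 1963 for higher and from 2 to 1296 for lower genes, with 1 higher gene for the residual score and 2 lower genes in the thinned strata of gene reads.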

How the data were processed

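The authors deposited 1 table of raw counts per well, with 58521 gene rows under 4 summary lines and a column counted without regard to strand, which was used. Per the submitters' processing notes, FastQC and STAR 2.7.3a were run and the builds were GRCh38.p2 and hg38. Which annotation was used, and whether reads were trimmed, is not stated there. Per the labels' protocols, poly(A) RNA was amplified by SMART-seq2, without molecular identifiers, so floors (3 reads, 1.60 to 15.3 CPM in kept libraries) cover counting error only. Summary lines entered only as shares. For 16 wells in plate columns 1 and 12 the table was named for the other column, and titles were followed. No 2 of the kept libraries had identical counts. No doublet caller was run.

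From these counts, levels were computed as CPM of gene rows and analysed as log2(CPM + 1) with Python 3.11.15, pandas 2.3.3, numpy 2.4.6 and scipy 1.17.1. TMM factors came from edgeR 4.0.16 and size factors from DESeq2 1.42.0 in R 4.3.3; neither was used for a test, since the cells are 1 sample. Positions and gene types are from GENCODE 29, which matched 8390 of the 9007 genes and is not known to be the authors' annotation. Named genes are the 6 score genes, the 12 largest differences each way that had 1 sign in both row sets, up to 6 list members past the size rule and up to 3 of the highest mean in each of 41 lists (804 genes), DNMT1, MIXL1, KDR and GDF3. Outside this rule, SOX2 and the genes given for well D4 were picked once their values were known. Members, lists and rules were chosen with earlier results of these data known. One list member is not reported here.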

Additional observations from a re-analysis of the deposited data

How the results depend on the processing

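No paired analysis was possible because all wells carry 1 set of labels with no shared replicate numbers. Of the 654 higher and 236 lower genes, the counts moved by over 1.5 times as follows. Other scaling gave 1941 higher genes (TMM) and 1963 (DESeq2). Thinning to 100000 gene reads gave 318 higher and 128 lower, pseudocount 10 gave 108 lower, no filter on low values 414 lower, a read in at least 50% of libraries 410 lower, and 70% of pairs 1502 higher. Groups of 36 libraries gave 69 and 45, and groups of 18 gave 1480 and 498. The score without POU5F1 gave 420 higher, without LIN28A 341 higher, without L1TD1 392 lower, and without TERF1 1077 and 380. Rows A to E and H gave 1031 higher, and rows F and G, with 6 libraries a group, 1731 and 1296. The residual score gave 1 and 5. Alternatives chosen after the data were seen gave 402 and 65 (at least 500000 gene reads), 274 and 53 (at most 5% on the 5 loci), 94 and 5 (strata of gene reads), 58 and 2 (those strata, thinned) and 138 lower (without wells D4, E10 and F10). Leaving out each library in turn gave 566 to 814 higher and 185 to 317 lower genes. Apart from the construction of each alternative, the cause was not tested.

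Of 87 named genes under every alternative, 6628 of 6699 differences stayed within the spread between libraries. This spread is wide. For TUBA1B the SD of log2(CPM + 1) was 1.93 among the high-score and 2.65 among the low-score libraries, beside a difference of 1.94. A difference can therefore shrink to near nothing and stay within it, so the count does not show that sizes held. In the residual-score groups no gene past the size rule in the main groups passed it. Most of the alternatives leave out a single library, which changes the groups little. In the residual-score groups depth was reversed, as given above. Sign was compared only in the 77 named genes past the size rule, and changes of it there are not among the 6628. Among these 77 genes, 38 differences changed sign. In groups made from the residual score these were TUBB6 (-0.48), EXOSC7 (-0.69), TFB2M (-0.75), SALL4 (-0.38), HMGA1 (-0.15), VRTN (-0.086), IGF2BP3 (-0.26), MAP2K1 (-0.052), GRB2 (-0.71), TRIM28 (-0.26), CCNB1 (-0.32), TTK (-0.72), GAPDH (-0.27), TUBA1A (-0.98), TUBA1B (-1.13) and TUBB (-0.27), and, among lower genes, KCP (0.046), MIR30B (1.204), RP11-540O11.8 (0.88), LINC00384 (0.85), TYR (1.29), RP11-120D5.1 (0.95), OSBPL5 (0.82), AC006548.28 (0.63), RP1-28C20.1 (0.60), RP1-228P16.4 (0.31), MEG3 (0.40), ESRRB (0.39), CDH5 (0.14), RP11-217O12.1 (0.53) and FLG-AS1 (0.36). In the strata of gene reads they were MIR30B (0.0084) and TYR (0.055), and in the thinned strata MIR30B (0.60), RP11-540O11.8 (0.083), RP11-120D5.1 (0.41), GRB2 (-0.041) and CDH5 (0.31). Depth limits the low-score libraries most: 3 reads are 2.18 to 15.3 CPM there, against 1.77 to 7.52 CPM in the high-score ones.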
